A study of Homo sapiens with 24 samples.

Results

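The SLC37 family comprises the sugar phosphate carriers SLC37A1, SLC37A2, SLC37A3 and SLC37A4, and its members were taken as every probe set annotated to 1 of these 4 symbols. Each gene had 1 probe set, giving 4 genes of the 18417 named and 4 probe sets of the 33297 on the array, and no probe set annotated to several genes (0) named a member. SLC37A1 is Entrez gene 54020, SLC37A2 is 219855, SLC37A3 is 84255 and SLC37A4 is 2542. Expression was measured on 24 Affymetrix arrays from GM10861 and GM10855, which are HapMap lines of B lymphocytes grown as lymphoblasts after transformation with Epstein-Barr virus. In each line, 3 arrays each came from cells given calcitriol (the hormonal form of vitamin D) for 36 h, calcitriol with estrogen for 36 h, estrogen for 36 h, and no agent at 0 h. Each line comes from 1 donor, so a difference between the lines cannot be told apart from a difference between 2 donors or cultures. The untreated cells were not kept for 36 h, so a change against them cannot be told apart from the effect of time in culture, whereas all treated groups had the same time. The labels give no doses, estrogen compound or vehicle. They also do not say if replicate arrays stand for separate cultures, so p-values measure only the array-to-array spread, which may be technical.

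SLC37 proteins sit mainly in the membrane of the endoplasmic reticulum and resemble the bacterial carriers that exchange organic phosphates for inorganic phosphate. SLC37A4 is the best understood: it brings glucose 6-phosphate into the endoplasmic reticulum, where glucose 6-phosphatase releases free glucose, and its inherited loss causes a glycogen storage disease with low neutrophil counts. SLC37A1 and SLC37A2 exchange glucose 6-phosphate for phosphate in reconstituted membranes, SLC37A2 is abundant in macrophages, and its gene is a known target of the vitamin D receptor VDR, which calcitriol activates. SLC37A3 works with the protein ATRAID in releasing nitrogen-containing bisphosphonate drugs from lysosomes.

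The deposited values are log2 signals, so a difference of 1 is a doubling, and levels of different probe sets were not set against each other. Array medians lay between 5.38 and 5.50, arrays of a group correlated at 0.990 to 0.995 across probe sets, and 0 pairs of arrays were identical. Above the highest of these array medians lay the mean signals of 7 of 9 B cell markers and 7 of 7 plasma cell markers. The same held for 0 of 7 T cell, 0 of 5 NK cell, 1 of 10 monocyte and macrophage (FCN1, at 5.54) and 1 of 5 fibroblast markers (COL1A1, at 6.18). These means cover both lines and can hide 1 of them. The T cell marker TRAT1, with a mean of 4.66, differed by -2.56 (GM10861 minus GM10855) and reached 6.13 on its highest array. The monocyte and macrophage marker ITGAM, with a mean of 5.39, differed by -0.44 and reached 5.79. Differences were tested with limma over all 24 arrays, averaging the comparison made within each line, and adjusted by the Benjamini-Hochberg method over the 21214 probe sets with a symbol. An adjusted p under 0.05 counted as a call, and changes are given with standard errors (SE) or 95% confidence intervals.

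SLC37A2 was the family member that rose with calcitriol, and it showed the largest difference between the lines among the 4. In GM10861, its log2 signals were 6.72, 6.73 and 6.74 with calcitriol, 6.49, 6.65 and 6.89 with both agents, 6.18, 6.20 and 6.28 with estrogen, and 6.08, 6.11 and 6.28 untreated. All 6 calcitriol-containing arrays of this line lay above all 6 arrays without it. The share of all probe sets that separate within 1 line was not counted, here or for the other members below. In GM10855, the signals were 5.59, 5.60 and 5.74 with calcitriol, 5.40, 5.70 and 5.93 with both agents, 5.18, 5.20 and 5.65 with estrogen, and 5.13, 5.15 and 5.57 untreated. Here the calcitriol arrays stood just above the highest untreated array, while the group with both agents overlapped the estrogen and the untreated groups. Both the estrogen group and the untreated group of GM10855 held 1 array well above the other two.

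**Figure D1:**
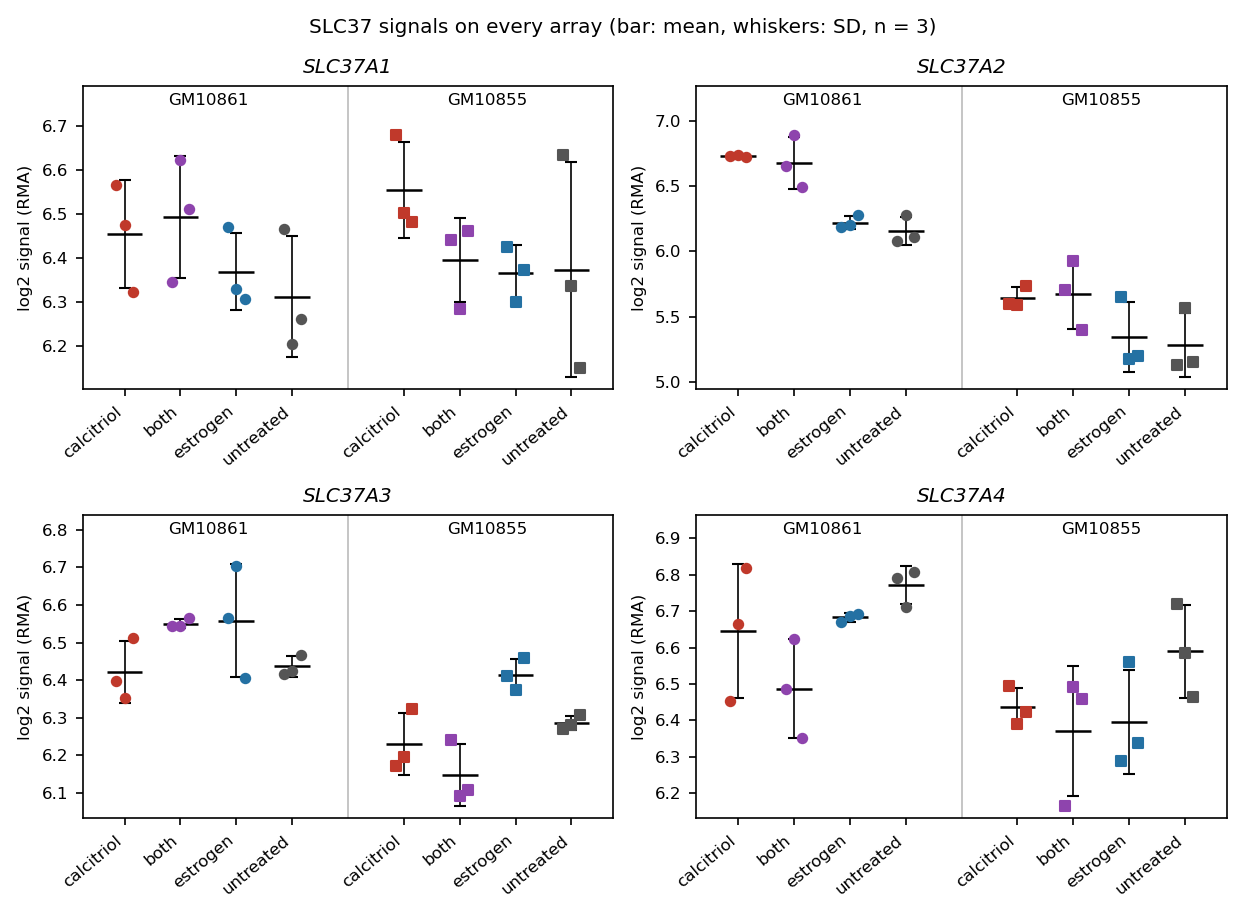
Log2 signal (vertical axis) of the 4 SLC37 probe sets on every array, by agent, with GM10861 left of GM10855; points are arrays, bars group means and whiskers SDs, n = 3 each. SLC37A2 is higher with calcitriol in both lines and higher in GM10861 under every agent, whereas the calcitriol and untreated groups of SLC37A1 overlap in both lines.

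Calcitriol against untreated sets cells after 36 h with the hormone against cells at 0 h, so hormone and time in culture cannot be told apart. SLC37A2 averaged 6.73 ± 0.0104 with calcitriol and 6.16 ± 0.106 untreated in GM10861, and 5.64 ± 0.0830 with calcitriol and 5.28 ± 0.244 untreated in GM10855 (SD, n = 3 each). Over both lines it rose by 0.47 ± 0.0961 (SE) on the log2 scale, a 1.38-fold change with an interval of 0.27 to 0.67 (limma, adjusted p = 0.0155). All 6 calcitriol arrays exceeded their line's untreated mean. The groups did not overlap in either line, with calcitriol higher, which held for 0.886% of the 21214 probe sets. Of all probe sets, 0.679% were called in this comparison, and by p-value SLC37A2 stood at rank 95. An exact permutation test within the lines, two-sided, gave p = 0.005, the smallest its 400 relabellings can give. The call was lost without the third untreated array of GM10855 (adjusted p = 0.0566), the third calcitriol array of GM10855 (0.0550) or the third untreated array of GM10861 (0.0519), with changes between 0.43 and 0.54 over the 12 arrays left out in turn.

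The other 3 members did not pass the test in this comparison. SLC37A1 differed by 0.16, with an interval of 0.0041 to 0.32 (adjusted p = 0.744), and all 6 calcitriol arrays exceeded their line's untreated mean. SLC37A4 differed by -0.14, with an interval of -0.29 to 0.010 (adjusted p = 0.808). SLC37A3 differed by -0.04, and its interval of -0.15 to 0.07 was the narrowest of the 3. At an unadjusted p under 0.05, 2 of the 4 members passed (SLC37A1 and SLC37A2), beside 1390 of all 21214 probe sets.

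Each line taken by itself had fewer arrays behind it, and SLC37A2 then passed in neither. Its change with calcitriol against untreated was 0.58 in GM10861 (adjusted p = 0.163, with 0.104% of probe sets called) and 0.36 in GM10855 (adjusted p = 0.474, with 0.509% called). The difference of these responses, GM10861 minus GM10855, was 0.22, with an interval of -0.18 to 0.62 (adjusted p = 0.859). In that test of the line difference, 0.00943% of probe sets were called.

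Calcitriol with estrogen against untreated gave SLC37A2 a rise of nearly the same size. With both agents it averaged 6.68 ± 0.199 in GM10861, against 6.16 ± 0.106 untreated, and 5.68 ± 0.268 in GM10855, against 5.28 ± 0.244 untreated (SD, n = 3 each). The change over both lines was 0.46, or 1.37-fold, with an interval of 0.26 to 0.66 (limma, adjusted p = 0.0143), and 1.15% of probe sets were called. This comparison shares its untreated arrays with the one before. Without the second array with both agents in GM10861 the call was lost (adjusted p = 0.0563), and it was also lost when only the compared arrays were fitted (0.0581). By line, the change was 0.52 in GM10861 (adjusted p = 0.205, 0.184% called) and 0.39 in GM10855 (adjusted p = 0.145, 2.33% called).

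SLC37A4 had its widest difference among the agent comparisons here, without passing the test. In GM10861 its log2 signals were 6.35, 6.49 and 6.62 with both agents and 6.71, 6.79 and 6.81 untreated, and in GM10855 they were 6.16, 6.46 and 6.49 with both agents and 6.46, 6.59 and 6.72 untreated. The groups were separate in GM10861 and overlapped in GM10855. The difference over both lines was -0.25 ± 0.0725 (SE), or 0.840-fold, with an interval of -0.40 to -0.10 (limma, adjusted p = 0.107), and all 6 arrays with both agents lay below their line's untreated mean. The exact permutation test gave p = 0.01 before any adjustment. SLC37A1 differed by 0.10 (adjusted p = 0.691).

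For SLC37A3, both agents against untreated pointed opposite ways in the lines. Its signals in GM10861 were 6.54, 6.54 and 6.57 with both agents and 6.42, 6.43 and 6.47 untreated. In GM10855 they were 6.09, 6.11 and 6.24 with both agents and 6.27, 6.28 and 6.31 untreated. The groups did not overlap in either line, with differences of 0.11 in GM10861 and -0.14 in GM10855, and the mean over both lines was -0.01 (adjusted p = 0.962). The difference between these line values was not tested, and the share of all probe sets that separate in opposite directions was not counted.

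The addition of calcitriol to estrogen was matched for time, with both groups at 36 h, and shared no array with calcitriol against untreated. SLC37A2 averaged 6.68 ± 0.199 with both agents and 6.22 ± 0.0493 with estrogen in GM10861, and 5.68 ± 0.268 with both agents and 5.34 ± 0.266 with estrogen in GM10855 (SD, n = 3 each). The difference over both lines was 0.39, or 1.31-fold, with an interval of 0.20 to 0.59, and did not pass the threshold (limma, adjusted p = 0.0572). All 6 arrays with both agents exceeded their line's estrogen mean, the groups were separate in GM10861 alone, and the exact permutation test gave p = 0.015. In this comparison 0.754% of probe sets were called. Without the first estrogen array of GM10855, which was the high one of its group, the difference was 0.47 and passed (adjusted p = 0.0119). It also passed without the third array with both agents in GM10855 (adjusted p = 0.0168) or in GM10861 (0.0450).

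By line, calcitriol added to estrogen gave SLC37A2 a difference of 0.46 in GM10861 (adjusted p = 0.498, 0.127% of probe sets called) and 0.33 in GM10855 (adjusted p = 0.390, 0.632% called). The line difference, GM10861 minus GM10855, was 0.13, with an interval of -0.27 to 0.52 (adjusted p = 0.941, 0.00471% called). Calcitriol against estrogen, each given alone for 36 h, gave 0.40 over both lines, with an interval of 0.20 to 0.60 (adjusted p = 0.0556, 0.570% called). It shares the estrogen arrays with the addition of calcitriol to estrogen. Without the first estrogen array of GM10855 that value was 0.48 and passed (adjusted p = 0.0107).

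SLC37A3 had lower means over both lines in the calcitriol-containing groups than with estrogen, without passing the test. In GM10861 its signals were 6.35, 6.40 and 6.51 with calcitriol, 6.54, 6.54 and 6.57 with both agents and 6.41, 6.57 and 6.70 with estrogen. In GM10855 they were 6.17, 6.20 and 6.32 with calcitriol, 6.09, 6.11 and 6.24 with both agents and 6.37, 6.41 and 6.46 with estrogen. Thus both calcitriol-containing groups of GM10855 lay wholly below its estrogen group, while in GM10861 both overlapped it. Calcitriol against estrogen was -0.16, with an interval of -0.27 to -0.050 (limma, adjusted p = 0.316), lower in 6 of 6 arrays. Calcitriol added to estrogen was -0.14, with an interval of -0.25 to -0.026 (adjusted p = 0.472). By line, calcitriol added to estrogen gave -0.0080 in GM10861 and -0.27 in GM10855 (adjusted p = 0.131), and the line difference of 0.26 missed the threshold (adjusted p = 0.665).

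Across all 12 arrays with calcitriol, alone or with estrogen, against all 12 without it, SLC37A2 averaged 6.18 and 5.75. This comparison was added after the values were seen. The change was 0.43 ± 0.0679 (SE), or 1.35-fold, with an interval of 0.29 to 0.57 (limma, adjusted p = 3.98e-04). Of the arrays with calcitriol, 12 of 12 exceeded the mean of their line's arrays without it, although the arrays overlapped in GM10855. The side without calcitriol includes the untreated arrays at 0 h, so time in culture was only partly matched. The change kept its call with each of the 24 arrays left out, and 1.41% of probe sets were called. Its line difference was 0.17, with an interval of -0.11 to 0.45 (adjusted p = 0.768). SLC37A1 differed by 0.12 (adjusted p = 0.514), SLC37A3 by -0.087 (adjusted p = 0.486) and SLC37A4 by -0.12 (adjusted p = 0.425), and none of these passed. All 4 members had an unadjusted p under 0.05 here, 2 with a positive and 2 with a negative difference, beside 1852 of all 21214 probe sets.

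**Figure D2:**
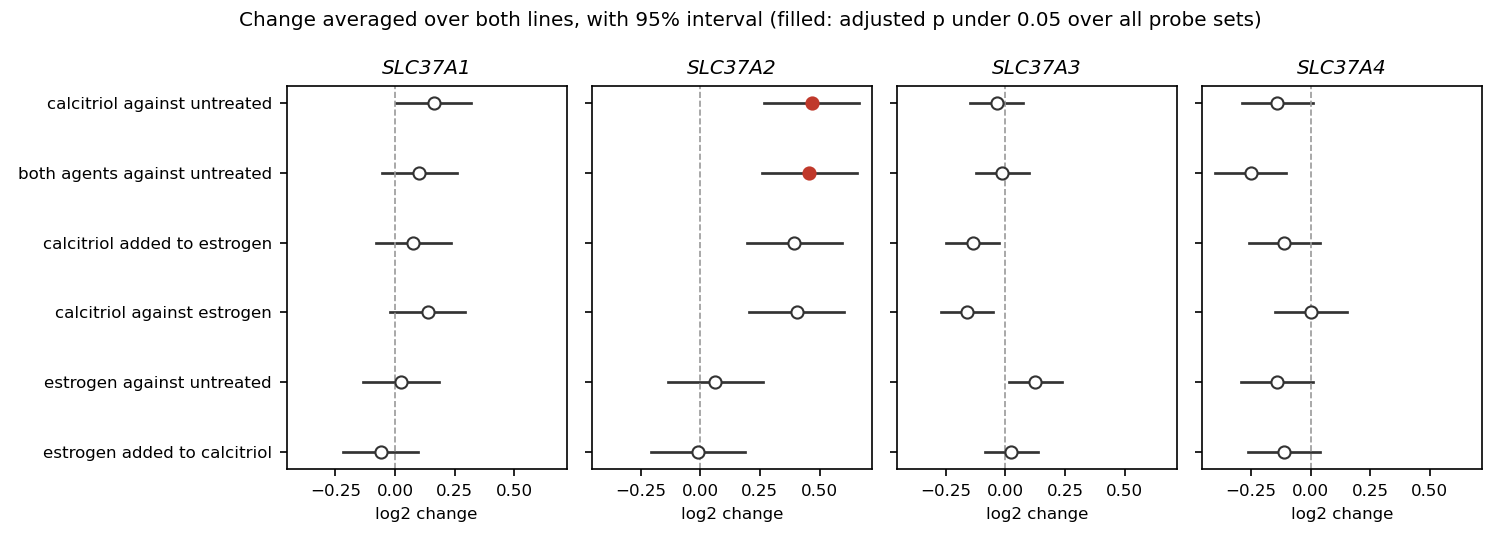
Log2 change (horizontal axis) with its 95% confidence interval for each SLC37 gene in each comparison of agents, averaged over both lines with 3 arrays a group in each. Filled points passed an adjusted p of 0.05, and only SLC37A2 has them, against untreated with calcitriol (0.47) and with both agents (0.46).

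Estrogen against untreated called 0% of probe sets, although 1097 of 21214 had an unadjusted p under 0.05. SLC37A2 differed by 0.06, with an interval of -0.14 to 0.26 (limma, adjusted p = 0.989). The smallest unadjusted p among the members belonged to SLC37A3, at 0.0289, with a difference of 0.13, an interval of 0.014 to 0.24 and an adjusted p of 0.927. SLC37A4 differed by -0.14 (adjusted p = 0.953), with 6 of 6 estrogen arrays below their line's untreated mean. The exact permutation test, unadjusted, gave p = 0.02 for SLC37A3 and 0.025 for SLC37A4. SLC37A1 differed by 0.02 (adjusted p = 0.995).

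Estrogen added to calcitriol also called 0% of probe sets, with 1772 at an unadjusted p under 0.05 and 0 of the 4 members among them. SLC37A2 differed by -0.0097, with an interval of -0.21 to 0.19 (limma, adjusted p = 0.985; exact permutation p = 0.945). The remaining members differed by -0.06 (SLC37A1), 0.02 (SLC37A3) and -0.11 (SLC37A4). The interaction of the agents, which asks whether the calcitriol change is altered by estrogen, called 0% as well, with 935 probe sets at an unadjusted p under 0.05. For SLC37A2 it was -0.07, with an interval of -0.35 to 0.21 (adjusted p = 0.992).

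Between the lines, 3 of the 4 members were higher in GM10861 and none was lower, in a comparison that called 41.8% of all probe sets. SLC37A2 averaged 6.45 in GM10861 and 5.49 in GM10855 over the 4 agents. Its difference was 0.96 ± 0.0679 (SE), or 1.95-fold, with an interval of 0.82 to 1.10 (limma, adjusted p = 2.6e-11). The highest GM10855 array, at 5.93 with both agents, lay below the lowest GM10861 array, at 6.08 untreated. Under each agent the difference passed, at 1.09 with calcitriol (adjusted p = 1.69e-06, 19.0% of probe sets called), 1.0 with both agents (5.11e-06, 19.8%), 0.88 with estrogen (3.29e-05, 19.3%) and 0.87 untreated (2.97e-05, 24.3%). Beside the line difference of 0.87 in untreated cells, the calcitriol changes were 0.58 in GM10861 and 0.36 in GM10855.

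Ordered by mean, the SLC37A2 groups ran from GM10861 with calcitriol and GM10861 with both agents, which overlapped, to GM10861 with estrogen and GM10861 untreated, which overlapped too. A gap of 0.46 between means, with no overlap, stood between those pairs. The untreated GM10861 group was followed, after a gap of 0.48 and again with no overlap, by the 4 groups of GM10855 in the order both agents, calcitriol, estrogen and untreated. Each of these overlapped its neighbour in that order.

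SLC37A3, the partner of ATRAID, averaged 6.49 in GM10861 and 6.27 in GM10855, a difference of 0.22 ± 0.0379 (SE), or 1.17-fold (limma, adjusted p = 3.59e-05). By agent the difference passed with both agents, at 0.40 (adjusted p = 3.03e-04), and did not pass with calcitriol (0.19, adjusted p = 0.0838), estrogen (0.14, 0.215) or untreated (0.15, 0.161). SLC37A4, the endoplasmic reticulum glucose 6-phosphate carrier, averaged 6.65 in GM10861 and 6.45 in GM10855, a difference of 0.20 ± 0.0512 (SE), or 1.15-fold (adjusted p = 0.00294). It passed under none of the 4 agents taken by itself, the nearest being estrogen at 0.29 (adjusted p = 0.0521). SLC37A1 differed by -0.015 between the lines (adjusted p = 0.849).

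Over the single agents, SLC37A4 had log2 signals of 6.45, 6.66 and 6.82 with calcitriol and 6.67, 6.69 and 6.69 with estrogen in GM10861. In GM10855 they were 6.39, 6.42 and 6.49 with calcitriol and 6.29, 6.34 and 6.56 with estrogen. In the order of means, untreated GM10861 stood highest for SLC37A4 and did not overlap the next group, GM10861 with estrogen, while all later neighbours overlapped. For SLC37A3 the order opened with GM10861 with estrogen and with both agents, which overlapped, and then a gap of 0.11 without overlap. Untreated GM10861, GM10861 with calcitriol and GM10855 with estrogen followed, each overlapping its neighbour. After a second gap of 0.13 without overlap came GM10855 untreated, with calcitriol and with both agents, which overlapped in turn.

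SLC37A1 was the member without a called change or difference. Its group means lay between 6.31 and 6.49 in GM10861 and between 6.37 and 6.55 in GM10855, and each group overlapped its neighbour in the order of means. In GM10861 its signals were 6.32, 6.47 and 6.57 with calcitriol and 6.21, 6.26 and 6.47 untreated, and in GM10855 they were 6.48, 6.50 and 6.68 with calcitriol and 6.15, 6.34 and 6.63 untreated. The groups overlapped in both lines. With both agents the signals were 6.35, 6.51 and 6.62 in GM10861 and 6.29, 6.44 and 6.46 in GM10855, and with estrogen they were 6.31, 6.33 and 6.47 in GM10861 and 6.30, 6.37 and 6.42 in GM10855. These groups overlapped each other in each line, and in GM10855 both lay wholly below the calcitriol group. Over both lines calcitriol against estrogen was 0.14 for SLC37A1 and did not pass (limma, adjusted p = 0.739). The residual SD between arrays of a group was 0.135 for SLC37A1, 0.181 for SLC37A2, 0.0757 for SLC37A3 and 0.126 for SLC37A4, against a median of 0.130 over all probe sets. SLC37A2 was therefore a noisier probe set than most (percentile 84.2) and SLC37A3 a quieter one (percentile 5.6).

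CAMP, CYP24A1 and VDR, which served as reference responses, rose with calcitriol in both of the comparisons that share no array. CAMP, which encodes the antimicrobial peptide cathelicidin, changed by 2.46 with calcitriol against untreated and by 2.16 with calcitriol added to estrogen. CYP24A1, the enzyme that inactivates calcitriol, changed by 2.06 and 2.08 in the same comparisons. VDR itself changed by 0.44 (limma, adjusted p = 2.0e-04) and 0.31 (adjusted p = 0.0134), beside 0.47 and 0.39 for SLC37A2. Averaged over all agents, VDR differed between the lines (GM10861 minus GM10855) by -0.16, CAMP by -0.29 and CYP24A1 by 0.59, beside 0.96 for SLC37A2. The line differences in the response to calcitriol, against untreated and added to estrogen, were 0.78 and 1.14 for CYP24A1. They were -0.33 and -0.56 for CAMP, -0.14 and -0.32 for VDR, and 0.22 and 0.13 for SLC37A2, and none passed. The 0.59 of CYP24A1 may thus mix a difference in level with a difference in response. SLC37A2 differed by 0.87 untreated and by 1.09 with calcitriol.

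**Figure D3:**
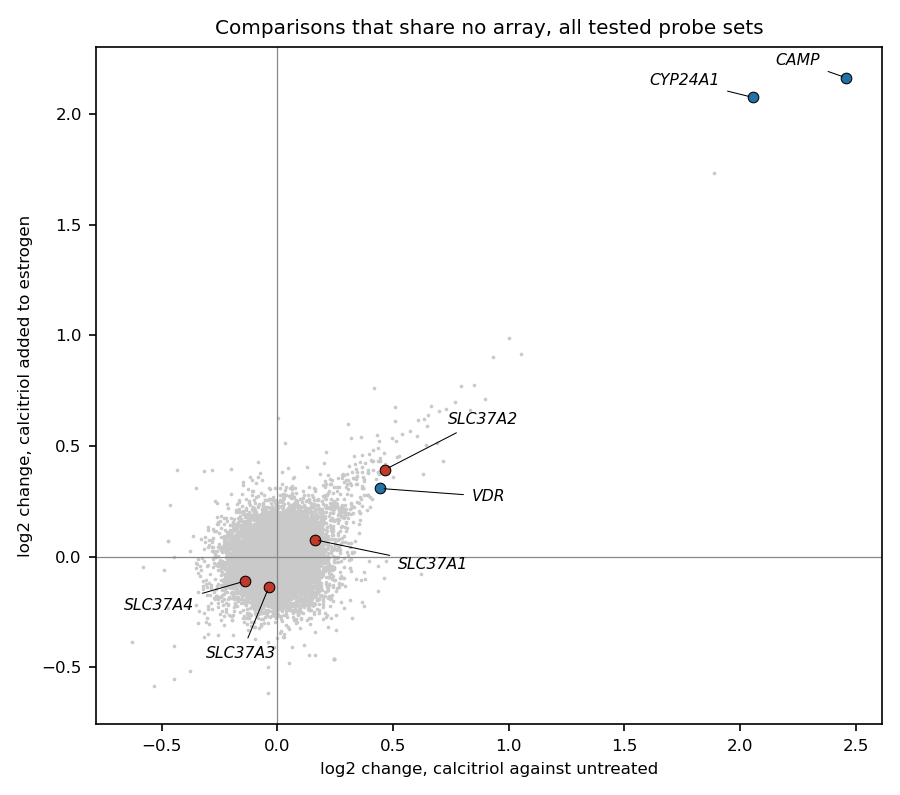
Log2 change with calcitriol against untreated (horizontal axis) and with calcitriol added to estrogen (vertical axis), which share no array; each grey point is 1 of 21214 probe sets, red points are the SLC37 genes and blue points CAMP, CYP24A1 and VDR. SLC37A2 (0.47 and 0.39) lies beside VDR (0.44 and 0.31), and the other 3 members lie within the bulk of the probe sets.

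Some markers of B and plasma cells moved with calcitriol beside SLC37A2. Against untreated, 2 of 9 B cell markers rose (CD79A by 0.85 and PAX5 by 0.26), as did 2 of 7 plasma cell markers (CD38 by 1.0 and TNFRSF17 by 0.67), and none of either list fell, where 0.722% of all genes were called. The remaining markers of these lists were not called, with changes between -0.081 (BANK1) and 0.19 (SDC1). The mean level of the plasma cell list, which includes CD38 and TNFRSF17, ranged over 8.85 to 8.91 with calcitriol and 8.50 to 8.59 untreated in GM10861. In GM10855 it ranged over 9.36 to 9.40 with calcitriol and 9.0 to 9.15 untreated. In these cultures more cells of a type and more RNA per cell cannot be told apart, and the part of these markers in the SLC37A2 result was not tested. Of the 7 T cell, 5 NK cell and 5 fibroblast markers 0 were called by limma, with 1 (a T cell marker) at an unadjusted p under 0.05. Of the 10 monocyte and macrophage markers, 0 were called and 0 had an unadjusted p under 0.05, and the mean level of that list ranged over 4.57 to 4.63 with calcitriol and 4.50 to 4.57 untreated in GM10861, and over 4.59 to 4.77 with calcitriol and 4.70 to 4.83 untreated in GM10855. Within that list CD14 and CD163 had mean signals of 5.23 and 3.87, below the array medians. MARCO (5.45) and ITGAM (5.39) lay within the range of the medians, and FCN1 (5.54) lay above it.

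Genes of sugar phosphate, glycogen and glycerol metabolism and carriers of free hexoses and of phosphate were followed in 7 lists, with 83 of 89 entries measured. With calcitriol against untreated, 1 of the 83 rose and 0 fell (1.2%, beside 0.722% of all genes), and the median change was 0.0076, beside -0.0015 over all genes. By limma, 0 were called in calcitriol added to estrogen (11 at an unadjusted p under 0.05, beside 1684 of all 21214 probe sets), in both agents against untreated (8, beside 2311) and in estrogen against untreated (5, beside 1097). No member of the list of glucose 6-phosphate hydrolysis and use in the endoplasmic reticulum, into which SLC37A4 feeds, passed among 5. The nearest of them were HSD11B1, the cortisol-regenerating reductase, at -0.15 (adjusted p = 0.815), and G6PC1, the liver glucose 6-phosphatase, at -0.11 (adjusted p = 0.922). Their mean signals of 4.08 and 4.02 lay below the array medians. G6PC3, with a mean signal of 6.75, differed by 0.014.

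The gene that rose was AQP3, a water channel that also passes glycerol. In GM10861 its log2 signals were 7.10, 7.29 and 7.37 with calcitriol and 6.70, 6.80 and 6.82 untreated, and in GM10855 they were 6.63, 6.70 and 6.71 with calcitriol and 6.49, 6.51 and 6.58 untreated. The groups did not overlap in either line, with calcitriol higher, as held for 0.886% of all probe sets. AQP3 rose by 0.32 ± 0.0608 (SE) over both lines (limma, adjusted p = 0.00707), and by 0.35 with calcitriol against estrogen (adjusted p = 0.00308). GM10855 by itself gave 0.16 against untreated and did not pass (adjusted p = 0.703). With calcitriol added to estrogen it differed by 0.22 and did not pass (adjusted p = 0.141).

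In the remaining lists 0 genes passed with calcitriol against untreated by limma, with 2 glycogen genes at an unadjusted p under 0.05. The one with the smallest p among the glycogen genes was PHKA1, a subunit of phosphorylase kinase, at 0.24 (adjusted p = 0.609). The hexokinase list was led by GCKR, the glucokinase regulator, at 0.13 (adjusted p = 0.907). Among pentose phosphate genes TKT, transketolase, was at 0.09 (adjusted p = 0.953). Among transporters, SLC2A11 was at -0.11 (adjusted p = 0.854) in the hexose list and SLC17A1 at 0.22 (adjusted p = 0.793) in the phosphate list. The mean signals of PHKA1 (3.92), GCKR (4.18) and SLC17A1 (3.12) lay below the array medians, and those of TKT (8.20) and SLC2A11 (5.92) above them.

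**Figure D4:**
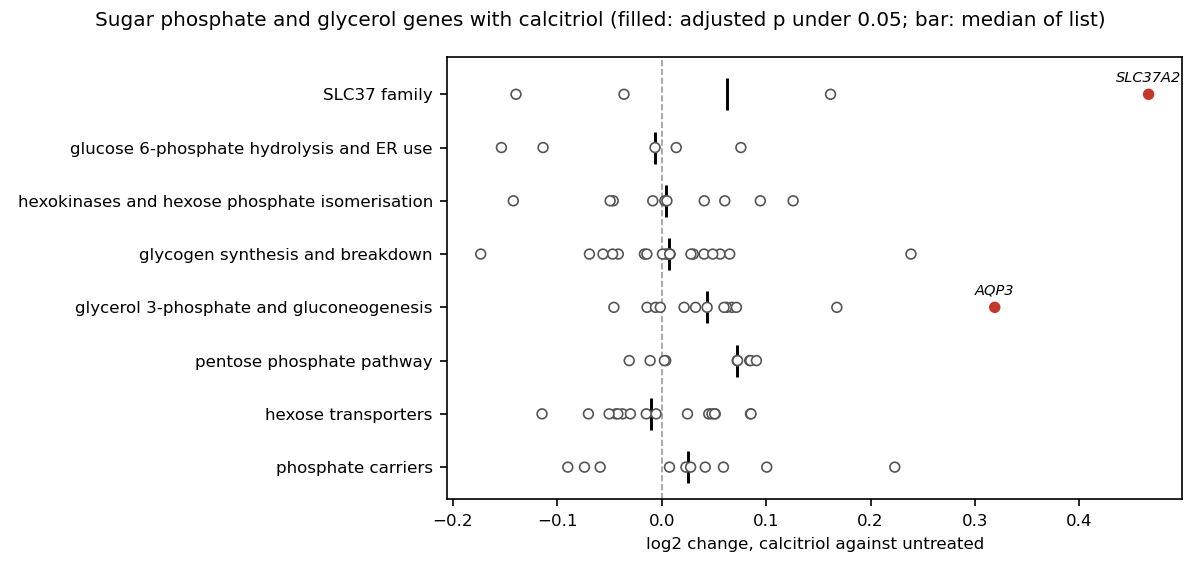
Log2 change with calcitriol against untreated (horizontal axis) for each measured gene of the SLC37 family and of 7 related lists; filled points passed an adjusted p of 0.05 and black bars are the medians of the lists. SLC37A2 at 0.47 and AQP3 at 0.32 are the filled points.

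Between the lines the same lists differed often, as did genes in general. Of the 83 genes, 29 were higher and 15 lower in GM10861, or 53.0%, beside 42.3% over all genes. In the pentose phosphate list 7 of 9 were higher and 0 lower, among them RPIA, ribose 5-phosphate isomerase, by 0.64, and PRPS1, which makes phosphoribosyl pyrophosphate, by 0.48. In the hexose transporter list 1 of 16 was higher and 7 lower, with the glucose transporter SLC2A3 at -0.62 and the fructose transporter SLC2A5 at -0.42. The glycerol list held both extremes, the glycerol channel AQP9 at 1.19 and the acyltransferase GPAT3 at -1.17.

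The 3 nearest measured protein-coding genes on each side of every member, 24 in all, held no change called by limma with calcitriol against untreated (0 of 24, with 2 at an unadjusted p under 0.05). Their changes lay between -0.08 and 0.16, with a lowest adjusted p of 0.532. Beside SLC37A2 stood HEPACAM at 0.04, HEPN1 at 0.06, CCDC15 at -0.06, TMEM218 at 0.14, PKNOX2 at 0.03 and FEZ1 at -0.08, against 0.47 for SLC37A2. In calcitriol added to estrogen 0 of 24 were called as well (1 at an unadjusted p under 0.05, lowest adjusted p = 0.220). Both agents against untreated also called 0 of 24, with 3 at an unadjusted p under 0.05 and changes between -0.09 and 0.30. The lowest adjusted p there belonged to TMEM218, next to SLC37A2, at 0.20 (limma, adjusted p = 0.0728). The largest change was that of HEPN1, at 0.30 (adjusted p = 0.223). The lines differed for 12 of the 24, beside 41.8% of all probe sets. Of the neighbours of SLC37A2, CCDC15 (0.53) and TMEM218 (0.17) were called higher in GM10861, as SLC37A2 was. FEZ1, a protein of axon outgrowth, was called lower (-2.05), and HEPACAM, HEPN1 and PKNOX2 were not called.

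As a description of likeness, each member was correlated with 16697 other genes over the 24 arrays after subtraction of each line's mean, so points share their agents and their normalisation. The 5 genes nearest SLC37A2 were CAMP (Pearson r = 0.836), SERINC2, a membrane protein of the serine incorporator family (0.835), IL17RB, a cytokine receptor subunit (0.819), CYP24A1 (0.817) and LGMN, a lysosomal endopeptidase (0.803). These 5 were chosen by likeness over the same arrays, so their calls add no separate evidence. All 5 were called higher with calcitriol against untreated and with calcitriol added to estrogen. In the first of these comparisons SERINC2 rose by 0.65, IL17RB by 0.44 and LGMN by 0.83.

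The genes nearest the other members were different ones, and none of them passed in either calcitriol comparison. SLC37A1 lay nearest NFKBIA, the inhibitor of NF-kB (0.795), followed by the cytokine receptor IL21R (0.791) and the inositol phosphate kinase ITPKB (0.788). SLC37A3 lay nearest the condensin subunit NCAPH2 (0.692) and the endoplasmic reticulum protein ERLIN2 (0.686). SLC37A4 lay nearest the neuronal adhesion protein NLGN3 (0.808), the transcription factor FOXF1 (0.794) and the mitochondrial deubiquitinase USP30 (0.749). For each member, SLC37A2 included, the named genes had the highest of 16697 values of r. How high the largest r would be among unrelated genes was not tested. Among the members themselves, r was 0.309 between SLC37A1 and SLC37A2, -0.417 between SLC37A2 and SLC37A4, and -0.282 between SLC37A2 and SLC37A3.

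**Figure D5:**
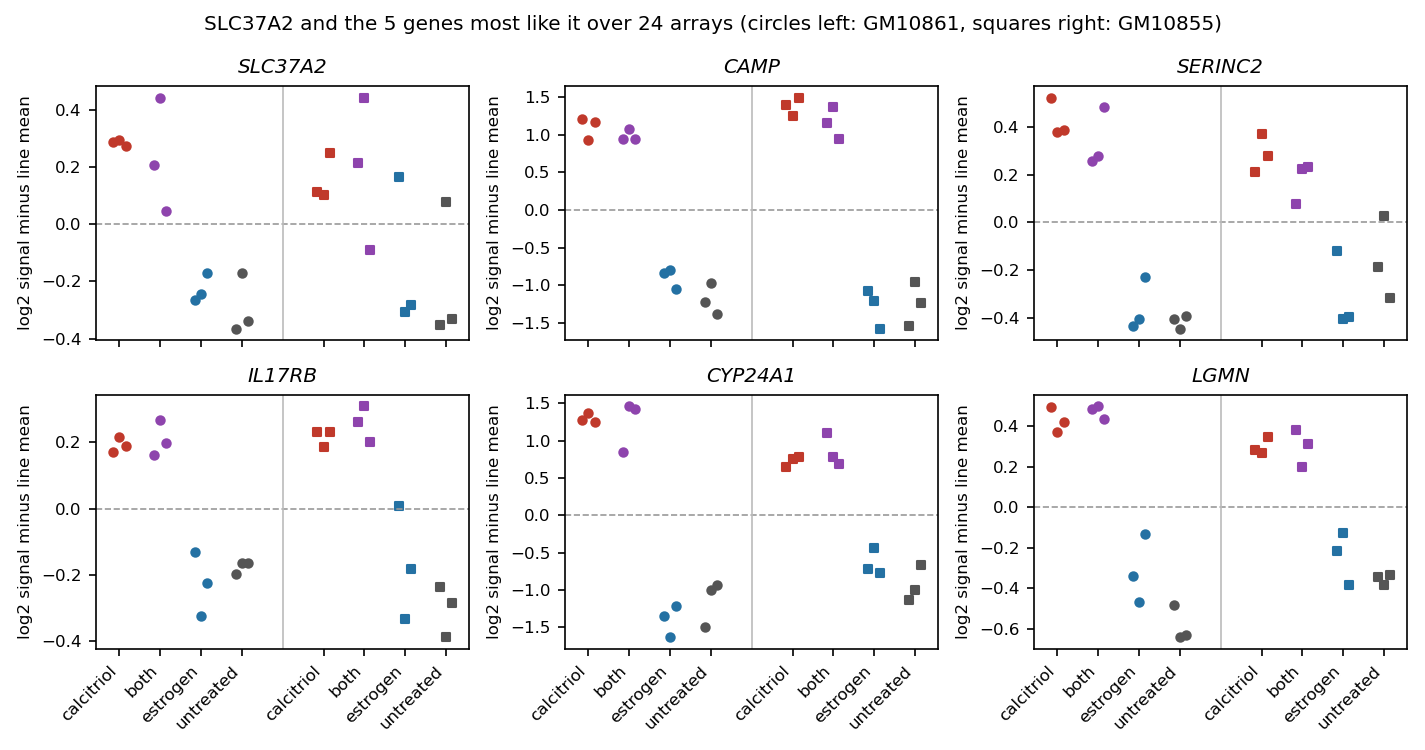
Line-centred log2 signal (vertical axis) of SLC37A2 and the 5 genes whose pattern is most like it, over the 24 arrays ordered by line and agent. Within each line the arrays with calcitriol stand above those without it for the 5 genes, as they do for SLC37A2 in GM10861, while its groups overlap in GM10855.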

How the data were processed

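Per the submitters' processing notes, the deposited log2 signals came from RMA, run by the authors in version 1.0.1 of Affymetrix Expression Console. RMA removes shifts shared by most genes and compresses changes of dim probe sets. No label names a genome build or annotation, so no coordinates are printed. Gene names came from a platform probe table (19460 probe sets with 1 symbol, 1754 with several, 12083 unnamed), of which 19429 matched the current gene table by Entrez ID. No detection values were used, and the number of arrays limits the precision.

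The log2 values were fitted without further normalisation in R 4.3.3 with limma 3.58.1, with 8 group means over 24 arrays, 16 residual and 6.73 prior degrees of freedom. P-values are two-sided and were adjusted by the Benjamini-Hochberg method over 21214 probe sets within each comparison. Exact permutation tests shuffled arrays within lines (400 relabellings). For lists, the probe set with the highest mean stood for a gene. The script was tested on simulated data. The members, lists and tests were chosen with earlier results of these data known. The named genes were the 4 members, CAMP, CYP24A1 and VDR, and list members called (up to 4 per list) or else nearest to it. The 3 nearest protein-coding genes on each side in the current gene table and the 5 genes most correlated with a member were named too. FCN1, COL1A1, CD14, CD163, MARCO, ITGAM, TRAT1, BANK1, SDC1 and G6PC3 were named after their values were seen. Alternatives covered a signal filter, the probe sets tested, 2 normalisations, the variance model, array weights, the arrays fitted, a minimum change, each line and each array left out.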

Additional observations from a re-analysis of the deposited data

How the results depend on the processing

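No paired analysis was possible because the labels give no replicate numbers that tie arrays of different groups together. Of 1084 recomputed values over 44 results, 1010 kept their direction and side of the threshold, 14 lost the threshold, 17 newly passed it, 7 of them by the unadjusted permutation test, and 43 reversed. The cause was not tested unless named. SLC37A2 with calcitriol added to estrogen (0.39) passed with a mean signal of at least 5 (adjusted p = 0.0311), with trend and robust eBayes (0.0258) and in the exact permutation test (0.015). Calcitriol against estrogen (0.40) passed with the signal filter (0.0293), after median centring (0.42, 0.0401), with trend and robust eBayes (0.0227), with only the compared arrays (0.0322) and by permutation (0.015). Both agents against untreated (0.46) missed with only the compared arrays (0.0581). A minimum change of 0.5 by construction ended the SLC37A2 calls of 0.47, 0.46 and, for all calcitriol arrays, 0.43, and the line differences of SLC37A3 (0.22) and SLC37A4 (0.20). With fewer arrays, SLC37A2 missed by line at 0.58 in GM10861 and 0.36 in GM10855 (calcitriol), and at 0.52 and 0.39 (both agents). The unadjusted permutation test passed SLC37A1 at 0.14 and SLC37A3 at -0.16 (calcitriol against estrogen), SLC37A3 at 0.13 and SLC37A4 at -0.14 (estrogen), and SLC37A4 at -0.25 (both agents).

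Reversals were all of uncalled values. After centring, SLC37A1 differed by 0.011 between lines, and the line difference of SLC37A4 with calcitriol was -0.0050, or -0.033 with array weights. Calcitriol against estrogen for SLC37A4 was -0.000678 with weights and -0.037 in GM10861. SLC37A1 with estrogen was -0.0077 in GM10855, and SLC37A3 with both agents was 0.11 in GM10861. Estrogen added to calcitriol gave SLC37A2 0.034 and SLC37A3 -0.082 in GM10855, and SLC37A1 0.039 in GM10861.

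With single arrays left out, SLC37A2 ranged over 0.43 to 0.54 (calcitriol), 0.39 to 0.53 (both agents), 0.33 to 0.47 (calcitriol added to estrogen), 0.36 to 0.48 (calcitriol against estrogen), -0.014 to 0.13 (estrogen), -0.073 to 0.060 (estrogen added to calcitriol), -0.14 to 0.0045 (interaction) and -0.028 to 0.25 (line difference with calcitriol added to estrogen). SLC37A1 ranged over -0.031 to 0.090 (estrogen), -0.17 to 0.074 (line difference with calcitriol) and -0.043 to 0.017 (lines). SLC37A3 ranged over -0.036 to 0.0015 (both agents) and -0.0050 to 0.088 (line difference with calcitriol). SLC37A4 ranged over -0.041 to 0.050 (calcitriol against estrogen), -0.018 to 0.081 (interaction) and -0.059 to 0.12 (line difference with calcitriol). Counts of probe sets called ranged over 22 to 192 with calcitriol, beside 144, 39 to 495 with both agents, beside 243, 27 to 180 with calcitriol added to estrogen, beside 160, 18 to 167 with calcitriol against estrogen, beside 121, 30 to 354 over all calcitriol arrays, beside 299, 0 to 6 with estrogen and 0 to 11 with estrogen added to calcitriol, beside 0, and 1540 to 10264 between the lines, beside 8865.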

Other observations

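AQP3, the glycerol channel, was higher in GM10861, by 0.42 over all agents. With calcitriol added to estrogen its groups were separate in 1 line, 4 of 6 arrays exceeded their line's estrogen mean, and the line difference in that response, GM10861 minus GM10855, was 0.39, with an interval of 0.14 to 0.64 (limma, adjusted p = 0.463). Its call with calcitriol against untreated was kept with each of 12 arrays left out, with a highest adjusted p of 0.0377.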
